A study of Mus musculus with 6 samples.

Results

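The genes of purine and pyrimidine nucleotide synthesis were examined, 38 named genes out of 55367 listed in the expression table. They were chosen by symbol from the textbook pathways, with earlier results of these data known, and were read in 4 arms: 13 genes of de novo purine synthesis, 5 of de novo pyrimidine synthesis, 10 of salvage, and 10 of deoxynucleotide synthesis and nucleotide interconversion. The data were 6 RNA-seq libraries of leukemia stem cells (LSCs), 3 WT and 3 Piezo1cko, sorted from the bone marrow of mice with acute myeloid leukemia (AML) induced by the MLL-AF9 oncogene. The comparison asked how the transcriptome of LSCs differed when *Piezo1*, which encodes a mechanically gated ion channel, was deleted.

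Piezo1cko donors were Mx1-cre; Piezo1 fl/fl mice and WT donors were Piezo1 fl/fl littermates without the Cre transgene. Both were 8 to 10 weeks old and both had received pIpC, an interferon inducer that switches on the Mx1 promoter. Lin- bone marrow cells of either donor carried the same MLL-AF9-YFP retrovirus and were transplanted into irradiated recipients, in which the leukemia grew. The Mx1 promoter responds to interferon in many cell types and is not particular to leukemia, and Cre was carried by 1 group only. The labels do not say whether the libraries of a group came from separate mice or separate leukemias, so p-values measure the spread between these libraries.

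Cells build purines stepwise on phosphoribosyl pyrophosphate (PRPP) to inosine monophosphate (IMP), which is then turned into AMP or GMP, and build the pyrimidine ring first and attach it to PRPP afterwards. Salvage enzymes return free bases and nucleosides to the pool, and ribonucleotide reductase converts ribonucleotides to the deoxynucleotides that replication needs. Proliferating leukemia cells draw heavily on these paths, and several of their enzymes are targets of antileukemic drugs, while MYC is a textbook activator of many of their genes through the E-box CACGTG.

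*Piezo1* itself had 101, 92.8 and 109 normalized reads in the WT libraries and 36.6, 56.5 and 45.8 in the Piezo1cko libraries, with a log2 fold change on recovered reads of -1.13 ± 0.174 (SE) and an adjusted p of 4.6e-05. The groups did not overlap, and some reads of the gene remained in all 3 Piezo1cko libraries. Recovered reads are the read numbers obtained by undoing the regularized log of the deposited table, and normalized reads are these divided by each library's size factor. Libraries held 14112090 to 15483559 reads. The cDNA was amplified before sequencing, so reads are not independent molecules. Of 5 genes of the sorted surface markers, *Kit* averaged 2522 normalized reads in WT and 3425 in Piezo1cko, *Cd34* 3721 and 5796, *Fcgr3* 5405 and 5323, *Fcgr2b* 3468 and 1667, and *Ly6a* 0.66 and 11.4. All but *Fcgr3* were called, *Fcgr2b* as lower and the others as higher. Marker lists of other cell types also differed: the summed reads of 6 mast cell and basophil genes were 663 to 723 in WT and 5190 to 5560 in Piezo1cko, those of 6 neutrophil genes 2480 to 2510 and 875 to 919 (5 of the genes were lower, while *Mmp8* rose from 42.5 to 633.5), those of 6 B cell genes 12200 to 12600 and 22300 to 22700 with *Ms4a1* and *Pax5* at no more than 3 reads in any library, those of 6 macrophage genes 5550 to 5830 and 6430 to 6640 with *C1qa* at 0, those of 6 erythroid genes 88.3 to 108 and 25.4 to 34.1, and those of 6 T cell genes 8.66 to 20.2 and 2.09 to 6.82 with *Cd8a* at 0. *Cpa3* held most of the mast cell and basophil reads, with means of 565.3 in WT and 5002 in Piezo1cko. Of that list 5 genes were called higher, and *Fcer1a* was not called. Of the macrophage genes 3 were called higher, among them *Cd68* with 3685 and 4585 reads, and *Csf1r* and *Adgre1* were not called. The part of these other cell types in the values below was not tested, and in these bulk libraries fewer cells of a type and less RNA per cell cannot be told apart.

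The E-box was searched for in the RefSeq promoter windows of GRCm38.p6, which run from 250 bases before to 50 after each transcript start. Of the 38 genes, 35 had a window, and *Dhodh*, *Pfas* and *Rrm2b* had none. CACGTG, which reads the same on both strands, was present for 7 of the 35 genes (20%) and for 8.09% of 27025 genes with a window. The windows below are shown because they carry this motif in the genes of that group whose expression differed between WT and Piezo1cko cells, each as 30 bases in gene orientation with the E-box in capitals. Of these genes *Paics*, *Atic*, *Dtymk* and *Tyms* were higher in Piezo1cko and *Impdh2* and *Nme1* were lower.
Paics, chr5:76951087-76951116, plus strand, 203 bases before the start and within an exon of the divergent gene Ppat: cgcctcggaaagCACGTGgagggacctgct
Atic, chr1:71557137-71557166, plus strand, 7 bases before the start and overlapping an annotated Atic exon: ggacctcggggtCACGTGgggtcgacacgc
Dtymk, chr1:93802065-93802094, minus strand, 148 bases before the start: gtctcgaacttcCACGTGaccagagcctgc
Tyms, chr5:30073669-30073698, minus strand, 61 bases before the start: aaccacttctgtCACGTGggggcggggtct
Impdh2, chr9:108560314-108560343, plus strand, 110 bases before the start and within an annotated Impdh2 exon: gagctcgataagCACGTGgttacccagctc
Nme1, chr11:93968273-93968302, minus strand, 18 bases before the start within an exon of Nme1 and overlapping one of Gm20390: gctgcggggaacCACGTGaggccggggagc
Nme1, a further start, chr11:93968037-93968066, minus strand, 29 bases before that start: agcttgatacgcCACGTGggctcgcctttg

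The motif was found for genes of the de novo purine arm and of the deoxynucleotide and interconversion arm, where the seventh, *Nt5c2*, was not called in either direction. A further 3 motifs were searched on both strands: TGATGNAA, the core bound by ATF4 with its partners, was found for 1 gene (*Prps1*, 2.86% of the 35 against 4.51% of all genes), TTTNGCGC, an E2F site, for 0 (1.57% of all genes), and CCAAT for 13 (37.1% against 41.1%). A match is a description of the letters in these windows and was not tested for binding. The E2F string is rare among all genes and other spellings were not searched. Its count of 0 therefore does not show that these genes lack E2F sites.

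Most nucleotide synthesis genes differed between the groups, by small amounts and in both directions. Of the 38 genes, 37 were abundant enough to test on the deposited values, and the remaining gene, *Cda*, which deaminates cytidine, was represented by 1 recovered read in 1 WT library. In Piezo1cko libraries 11 genes were higher and 18 were lower at an adjusted p under 0.05 by limma with Benjamini-Hochberg adjustment over all 16746 genes, and 8 were not called. Thus 29.7% of the genes tested were higher, beside 31.6% of all genes tested, and 48.6% were lower, beside 31.4% of all genes tested. Among genes averaging at least 50 recovered reads, 12 of 36 members were higher and 17 lower. The shares of all genes at that level were 34.2% higher and 36.4% lower. The deposited values of the groups did not overlap for 29 of the 37 genes, and for 66.6% of all genes tested. With each library centred on its median the members split into 12 higher and 15 lower, and all genes into 38.5% higher and 25.2% lower. Without WT replicate 3 the number of higher members was 6, since *Pfas*, *Gmps*, *Aprt*, *Ada* and *Tyms* were no longer called.

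The sizes were read on the recovered reads, because the regularized log draws differences toward 0. The Piezo1cko mean lay between 57.9% and 129% of the WT mean for the 37 genes, and 16 of them were within 10% of WT. No gene passed the thresholds for a differentially expressed gene (DEG), an adjusted p under 0.05 by limma-voom and an absolute log2 fold change over 1, whereas 12.7% of 17352 genes passed them as higher and 12.2% as lower. No fitted fold change reached that size, so the count is 0 at an unadjusted p under 0.05 as well, and it was 0 on the deposited values, where 0.257% of genes passed as higher and 0.561% as lower. Of the 37 genes, 36 had a mean of at least 50 reads, and among all genes at that level 4.01% were higher DEGs and 4.85% lower DEGs. The median log2 fold change on recovered reads was -0.10 over the members and 0.00 over all genes.

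**Figure D1:**
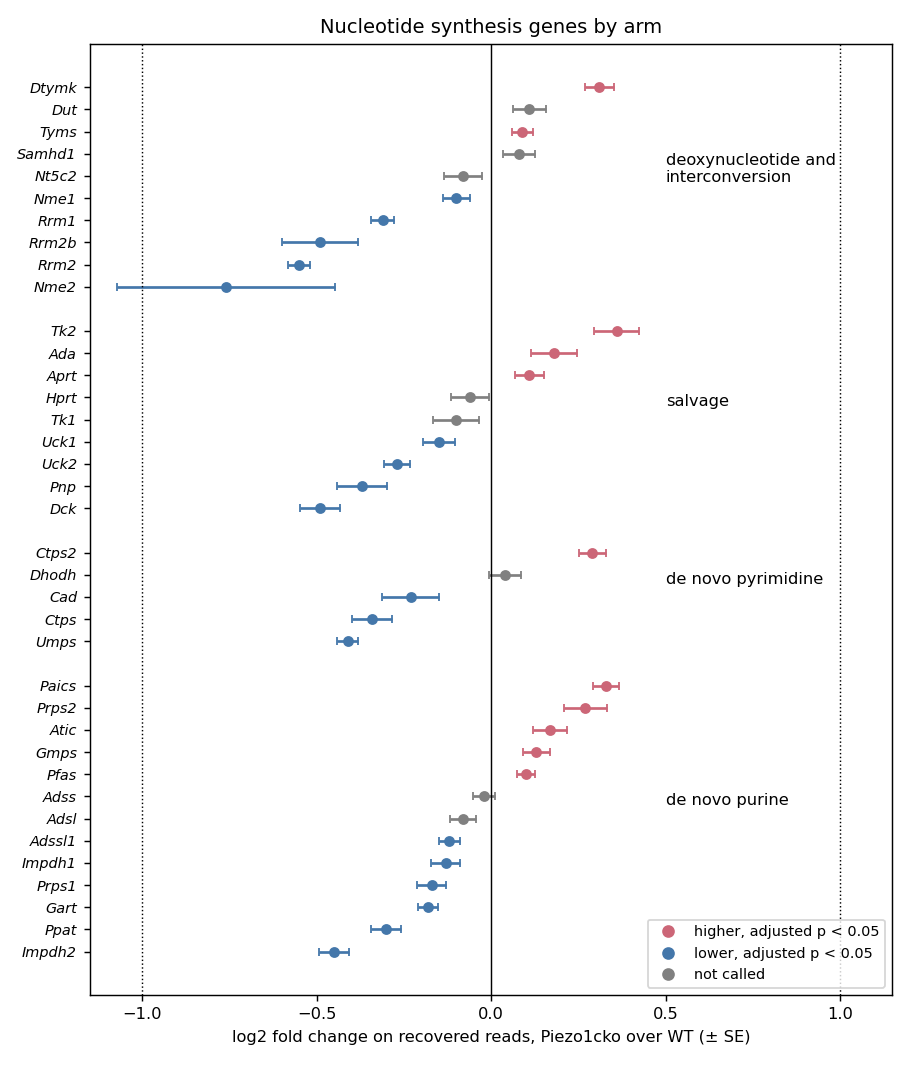
Log2 fold change on recovered reads of Piezo1cko over WT for 37 nucleotide synthesis genes, grouped by arm (points, fitted values; whiskers, SE; 3 libraries per group). Colours give the call on the deposited values at an adjusted p under 0.05, and dotted lines mark the DEG threshold of 1, inside which all points lie, between -0.76 and 0.36.

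Read by arm, the sum of normalized reads was close between groups for purine synthesis and below WT in the other arms. The 13 de novo purine genes together had 53274, 51576 and 51707 reads in WT and 53958, 51678 and 52813 in Piezo1cko, and the ranges overlapped. The 5 de novo pyrimidine genes had 8729, 8776 and 8708 reads in WT and 7695, 7679 and 7714 in Piezo1cko, 88.1% of WT. Each Piezo1cko library lay below each WT library by more than the range within either group. The arm means were 8737 and 7696 reads, and *Umps*, the most abundant of these genes, averaged 4776 and 3604. The *Umps* mean thus fell by more reads than the arm mean. *Cad* and *Ctps* were also lower, *Ctps2* was higher and *Dhodh* was not called.

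The salvage genes summed to 10206, 10494 and 10417 reads in WT and 9568, 9749 and 9683 in Piezo1cko, 93.2% of WT. The deoxynucleotide and interconversion genes summed to 29838, 28734 and 29503 reads in WT and 25840, 24830 and 25010 in Piezo1cko, 85.9% of WT. These sums follow their most abundant genes: *Rrm2* held 39.9% ± 0.606 (SD, n = 3) of the deoxynucleotide reads in WT and 31.7% ± 0.708 in Piezo1cko, and *Pfas* held 32.8% ± 0.552 and 34.6% ± 0.243 of the purine reads.

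**Figure D2:**
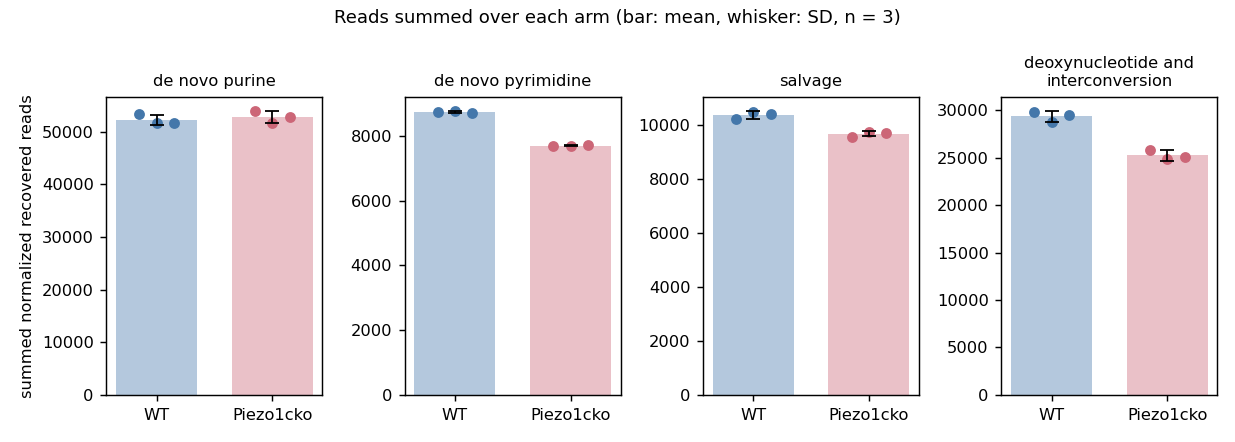
Normalized recovered reads summed over the genes of each arm in each library (points), with the mean (bar) and SD (whisker) of 3 WT and 3 Piezo1cko libraries, each panel on its own axis from 0. The purine sums overlap between groups at 101% of WT, and the sums of the other arms do not.

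All genes of ribonucleotide reductase were lower. *Rrm2*, the small subunit made in S phase, had 12072, 11281 and 11797 normalized reads in WT and 8255, 7664 and 8054 in Piezo1cko. The groups stood far apart relative to their spread, with 68.2% of WT left, a log2 fold change of -0.55 ± 0.031 (SE) and an adjusted p of 7.5e-10. *Rrm1*, the large catalytic subunit, had 5550, 5291 and 5453 reads in WT and 4589, 4309 and 4275 in Piezo1cko, a log2 fold change of -0.31 ± 0.033 and an adjusted p of 1.18e-06. *Rrm2b*, the p53-inducible small subunit used outside S phase, had far fewer reads, 219, 193 and 185 in WT and 148, 126 and 151 in Piezo1cko. It fell by 0.49 ± 0.11 on the log2 scale with an adjusted p of 0.00109, so all 3 subunit genes were lower without overlap between groups. Among all genes tested 31.4% were lower, and the groups did not overlap for 66.6%. TPM (reads per base of all annotated exons of a gene, scaled to the same total in each library) compares genes, and their order depends on the annotated lengths. On this scale *Rrm2* was the most abundant of the 38 genes in both groups, at 929 ± 34.7 (SD, n = 3) in WT and 643 ± 27.4 in Piezo1cko. *Rrm2b* stood at 4.79 ± 0.441 and 3.46 ± 0.347.

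The genes of thymidylate synthesis did not follow the reductase. *Dtymk*, the kinase that makes dTDP from dTMP, had 1847, 1823 and 1819 reads in WT and 2324, 2135 and 2360 in Piezo1cko. Every Piezo1cko library exceeded every WT library, with a log2 fold change of 0.31 ± 0.042 (SE) and an adjusted p of 1.34e-05. *Tyms*, thymidylate synthase, rose from 4877 ± 96.4 (SD, n = 3) to 5175 ± 159 reads, a log2 fold change of 0.09. The call on *Tyms* was lost without WT replicate 1 or 3 or Piezo1cko replicate 1 or 2, with adjusted p-values of 0.082 to 0.12. *Dut*, the dUTPase that supplies dUMP and keeps uracil out of DNA, had 1084 ± 53.2 reads in WT and 1171 ± 32.6 in Piezo1cko and missed the threshold with an adjusted p of 0.0554 by limma on the deposited values, and passed it without WT replicate 1 with 0.0185.

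The remaining genes of that arm were called lower or not called. *Nme1*, a nucleoside diphosphate kinase, was slightly lower, with 2086 ± 52.5 reads in WT and 1949 ± 61.4 in Piezo1cko (SD, n = 3), a call that was lost on leaving out any library but Piezo1cko replicate 2, with adjusted p-values of 0.0538 to 0.171. Its paralogue *Nme2* was listed low, with 26.2, 35.3 and 19.2 reads in WT and 20.9, 12.7 and 13.2 in Piezo1cko. Its log2 fold change of -0.76 ± 0.312 (SE) was the largest in size of the members and had the largest error. The groups overlapped, the call was lost without WT replicate 1 or 2 or Piezo1cko replicate 2 or 3 (adjusted p 0.0858 to 0.198), and its level is uncertain because 48.9% of its exon bases are shared with the readthrough gene *Gm20390*, which is listed at 0 in all 6 libraries. *Samhd1*, which hydrolyses deoxynucleoside triphosphates, had 1095 ± 26.2 and 1158 ± 52.8 reads, and *Nt5c2*, a cytosolic nucleotidase that dephosphorylates IMP and GMP, had 1013 ± 75.8 and 960.8 ± 25.6. Neither was called, and their groups overlapped.

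S phase genes moved in the same libraries. Of 24 replication genes outside the members, 15 were lower, 2 were higher and 0 were DEGs on recovered reads, with a median log2 fold change of -0.16. Among all genes tested 31.4% were lower and 31.6% higher, and 12.2% were lower DEGs and 12.7% higher DEGs. The part of a different share of cells in S phase in the change of *Rrm1* and *Rrm2* was not tested. *Tk1*, thymidine kinase, whose transcript also peaks in S phase, had 1445, 1647 and 1611 reads in WT and 1292, 1529 and 1580 in Piezo1cko and was not called.

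**Figure D3:**
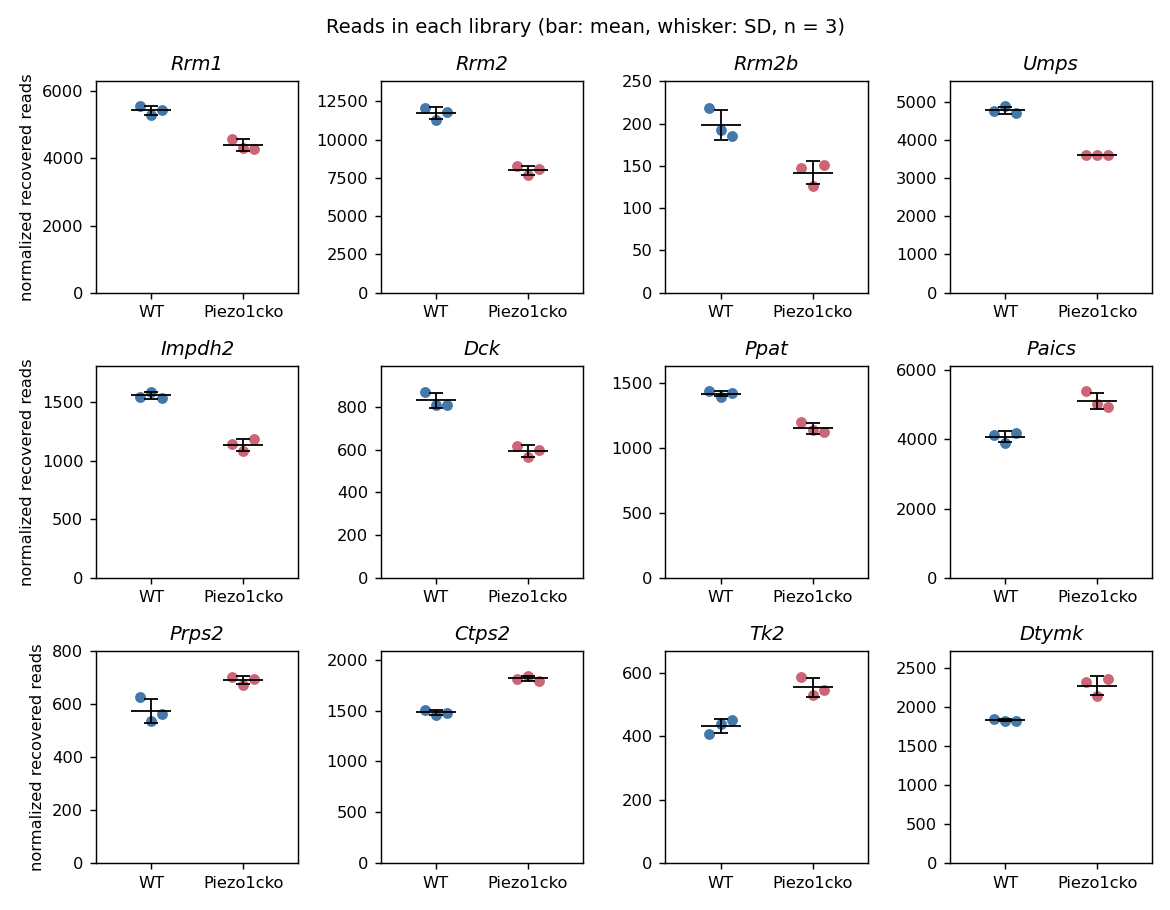
Normalized recovered reads of 12 nucleotide synthesis genes in each library (points), with the mean (bar) and SD (whisker), n = 3 per group, each panel on its own axis from 0. The top row and *Impdh2*, *Dck* and *Ppat* are lower in all Piezo1cko libraries, and *Paics*, *Prps2*, *Ctps2*, *Tk2* and *Dtymk* are higher in all of them.

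De novo pyrimidine synthesis was lower at its last and most abundant step. *Umps*, the bifunctional enzyme that forms UMP from orotate, had 4749, 4884 and 4695 reads in WT and 3598, 3608 and 3606 in Piezo1cko. The Piezo1cko libraries differed from each other by 10 reads at most, and the change was -0.41 ± 0.03 (SE) on the log2 scale with an adjusted p of 1.62e-08. *Cad*, which carries the opening steps of the path in a single protein, had 315, 348 and 322 reads in WT and 253, 289 and 300 in Piezo1cko and was lower with an adjusted p of 0.0241, a call lost without WT replicate 2 (0.089) or Piezo1cko replicate 1 (0.09) on the deposited values. *Dhodh*, the mitochondrial enzyme between them and a drug target under study in AML, had 1240 ± 56.2 (SD, n = 3) and 1274 ± 49.6 reads and was not called. In TPM *Umps* stood at 301.2 ± 5.23 in WT, *Dhodh* at 43.1 ± 1.99 and *Cad* at 8.82 ± 0.435.

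The CTP synthases moved in opposite directions. *Ctps* had 959, 859 and 914 reads in WT and 759, 712 and 686 in Piezo1cko, a log2 fold change of -0.34 ± 0.057 (SE). *Ctps2* had 1512, 1462 and 1474 reads in WT and 1817, 1843 and 1795 in Piezo1cko, a log2 fold change of 0.29 ± 0.038. Neither gene overlapped between groups, and the adjusted p-values were 9.04e-05 and 8.01e-06. Both enzymes make CTP from UTP.

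In de novo purine synthesis 5 genes (38.5%) were higher and 6 (46.2%) lower among 13, beside 31.6% and 31.4% of all genes tested. Changes of opposite sign were seen at neighbouring steps. PRPP synthetase showed this at the entry to the path. *Prps1* had 2250, 2121 and 2139 reads in WT and 2012, 1846 and 1920 in Piezo1cko, a log2 fold change of -0.17 ± 0.041 (SE). *Prps2* had 626, 538 and 564 reads in WT and 704, 675 and 695 in Piezo1cko, a log2 fold change of 0.27 ± 0.061. The groups of either gene did not overlap, and the adjusted p-values were 0.00187 and 0.00141.

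*Ppat*, which commits PRPP to purines, had 1437, 1395 and 1420 reads in WT and 1201, 1137 and 1121 in Piezo1cko, a log2 fold change of -0.30 ± 0.043 (SE) with an adjusted p of 2.4e-05. *Paics*, a bifunctional enzyme further along, had 4133, 3903 and 4187 reads in WT and 5383, 5017 and 4939 in Piezo1cko, a log2 fold change of 0.33 ± 0.037 with an adjusted p of 2.35e-06. The pair lies head to head on chromosome 5 and the annotated exons share 272 bases on opposite strands, 6.15% of the *Ppat* exon bases and 8.67% of those of *Paics*. The library kit does not mark strand, so reads from the shared bases cannot be assigned. The difference of the deposited log2 values, *Ppat* minus *Paics*, chosen after the values were seen, was -1.62, -1.59 and -1.64 in WT and -2.07, -2.05 and -2.04 in Piezo1cko.

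The other genes on the way to IMP changed by less. *Gart*, a trifunctional enzyme, had 4695 ± 40.1 (SD, n = 3) reads in WT and 4134 ± 85.8 in Piezo1cko and was lower, with 19.7% of its exon bases shared with an antisense gene. *Pfas*, which forms the amidine ahead of ring closure, had the most reads of the members with 17090 ± 552 in WT and 18280 ± 521 in Piezo1cko, and was higher by 0.10 ± 0.026 (SE) on the log2 scale, a call lost without WT replicate 3 (adjusted p 0.0604). *Atic*, which completes IMP, was higher with 899.7 ± 21.4 and 1012 ± 44.0 reads. *Adsl*, which acts both on the way to IMP and from IMP to AMP, had 2384 ± 2.62 and 2258 ± 100.1 reads and was not called, with an adjusted p of 0.0981 on the deposited values.

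From IMP to GMP the gene of the oxidising step was lower and that of the next step higher. *Impdh2*, the IMP dehydrogenase most used by proliferating cells, had 1546, 1588 and 1536 reads in WT and 1139, 1085 and 1188 in Piezo1cko, 73.1% of WT. This was the largest change of the purine arm, with a log2 fold change of -0.45 ± 0.044 (SE) and an adjusted p of 4.24e-07. *Impdh1* was lower by less, with 1408 ± 15.1 (SD, n = 3) and 1290 ± 40.4 reads and a log2 fold change of -0.13, and was not called without Piezo1cko replicate 1 (adjusted p 0.0594). *Gmps*, GMP synthetase, had 4860, 4496 and 4454 reads in WT and 5214, 4819 and 5053 in Piezo1cko, called higher although WT replicate 1 exceeded Piezo1cko replicate 2. That call was lost without WT replicate 2 or 3, with adjusted p-values of 0.0651 and 0.0727.

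From IMP to AMP, *Adss*, the widely expressed adenylosuccinate synthase, had 5980 ± 198 reads in WT and 5891 ± 185 in Piezo1cko (SD, n = 3) and was not called. *Adssl1*, the form best known from muscle, was lower with 5328 ± 125 and 4905 ± 96.6 reads. Per length *Adssl1* stood above *Adss* in WT LSCs, at 560 ± 11.6 TPM against 290 ± 10.5. The annotated exon lengths behind this order were 2090 bases for *Adssl1* and 4531 for *Adss*.

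Salvage genes also moved both ways. *Dck*, deoxycytidine kinase, which activates the AML drug cytarabine, had 869, 811 and 810 reads in WT and 617, 563 and 597 in Piezo1cko. It was lower in every Piezo1cko library, at 71.4% of WT, with a log2 fold change of -0.49 ± 0.056 (SE) and an adjusted p of 2.29e-06. *Tk2*, the mitochondrial thymidine kinase, had 407, 437 and 450 reads in WT and 587, 530 and 545 in Piezo1cko, the largest rise of the 38 genes, with a log2 fold change of 0.36 ± 0.065 and an adjusted p of 0.000187. The uridine-cytidine kinases were both lower, *Uck1* with 1063 ± 33.2 (SD, n = 3) and 957.0 ± 13.9 reads and *Uck2* with 2565 ± 81.4 and 2130 ± 32.1.

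*Pnp*, purine nucleoside phosphorylase, had 364, 378 and 369 reads in WT and 286, 270 and 302 in Piezo1cko, a log2 fold change of -0.37 ± 0.072 (SE). Its near-identical neighbour *Pnp2*, not a member, had 54.3, 36.3 and 55.8 reads in WT and 186, 158 and 144 in Piezo1cko. Reads of the copies can be split between them by the counting, so the fall of *Pnp* is uncertain, and the sum of both, taken after the values were seen, was 419 ± 5.33 reads in WT and 449 ± 22.2 in Piezo1cko (SD, n = 3). A gene on the same strand also shares 18% of the *Pnp* exon bases.

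Of the purine base and nucleoside enzymes, *Aprt*, which recovers adenine, was higher with 1900 ± 81.4 and 2047 ± 72.7 reads (SD, n = 3), and *Ada*, adenosine deaminase, with 348.5 ± 13.4 and 393.6 ± 10.4. The call on *Aprt* was lost without WT replicate 1 or 3 or Piezo1cko replicate 2 or 3 (adjusted p 0.072 to 0.178), and that on *Ada* without WT replicate 3 or Piezo1cko replicate 2 (0.0812 to 0.0937). *Hprt*, which recovers hypoxanthine and guanine and is often used as a reference transcript, had 1295 ± 75.6 and 1239 ± 76.8 reads and was not called, with an adjusted p of 0.31 on recovered reads.

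The balance within 8 pairs of genes whose products serve the same reaction was compared by the difference of their deposited log2 values in each library. An exact permutation test of 3 against 3 libraries cannot give a two-sided p under 0.1, and 6 of the 8 pairs reached it (0.133 after Benjamini-Hochberg adjustment over 8 pairs), which is to say that their groups did not overlap. For comparison, the groups did not overlap for 66.6% of the 16746 single genes tested. The largest shift was in *Ctps* minus *Ctps2*, from -0.81 ± 0.04 (SD, n = 3) in WT to -1.23 ± 0.04 in Piezo1cko. *Prps1* minus *Prps2* went from 1.84 ± 0.04 to 1.55 ± 0.03 and *Tk1* minus *Tk2* from 1.77 ± 0.04 to 1.49 ± 0.15, both toward the gene with fewer reads.

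*Impdh1* minus *Impdh2* went from -0.09 ± 0.01 to 0.13 ± 0.06 (SD, n = 3), so the form with more reads differed between groups. *Uck1* minus *Uck2* moved from -1.26 ± 0.06 to -1.17 ± 0.02. *Rrm2* minus *Rrm2b* moved by -0.20 on the deposited values, but by -0.06 with overlapping groups on log2 of the recovered reads (exact permutation p = 0.6), since the deposited values shrink the change of the rarer gene more. The groups overlapped for *Adss* minus *Adssl1*, which changed by 0.07 (exact permutation p = 0.3), and for *Nme1* minus *Nme2*, which changed by 0.01 (exact permutation p = 0.8).

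**Figure D4:**
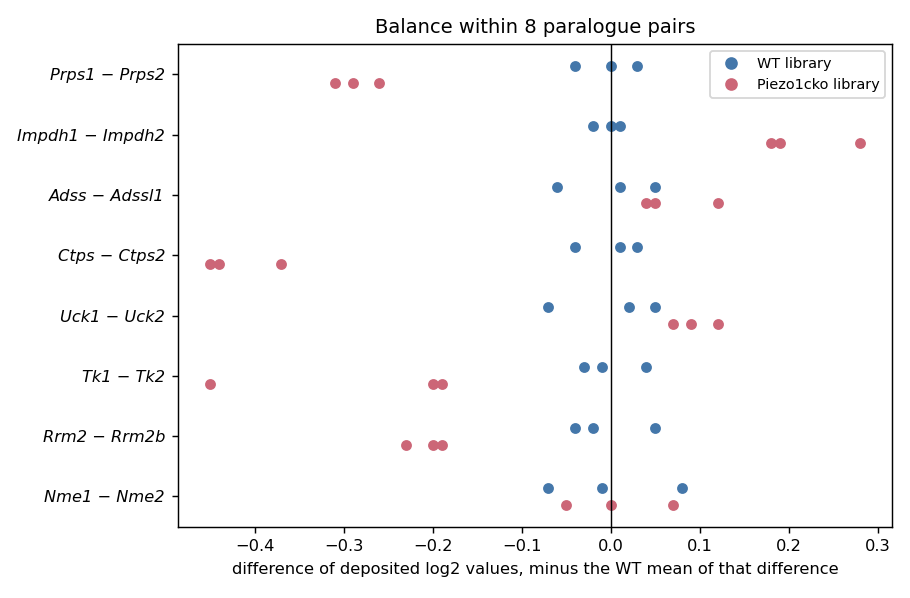
Difference of the deposited log2 values of the 2 genes of a pair in each library, less the WT mean of that difference, for 8 pairs (blue WT, red Piezo1cko, 3 libraries each). Piezo1cko points lie outside the WT range for 6 pairs, farthest for *Ctps* minus *Ctps2* with a mean shift of -0.42.

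Around the members, the folate list holds enzymes that supply one-carbon units to purines and thymidylate. Of 15 folate genes 7 were lower and 1 was higher, beside 31.4% and 31.6% of all genes tested. On recovered reads 4 were lower DEGs and 1 a higher DEG, beside 12.2% and 12.7% of all genes. The median log2 fold change of the list was -0.10, the value of the members. *Mthfd2*, the mitochondrial methylenetetrahydrofolate dehydrogenase, had 2595, 2505 and 2561 reads in WT and 553, 592 and 634 in Piezo1cko, a log2 fold change of -2.11 ± 0.051 (SE) with an adjusted p of 2.67e-14. *Aldh1l2*, a mitochondrial formyltetrahydrofolate dehydrogenase, had 47.5, 35.3 and 38.5 reads in WT and 0 in each Piezo1cko library, at least 13.5-fold lower with a floor of 3 reads per library. *Aldh1l1*, its cytosolic counterpart, went from 39.0 ± 8.88 to 9.09 ± 0.698 reads (SD, n = 3), and *Folr1*, a folate receptor, from 6.18 ± 2.37 to 41.8 ± 6.96.

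The 7 genes of the pentose phosphate path, which makes the ribose of PRPP, all differed, with 3 higher and 4 lower and 0 DEGs. Among all genes tested 31.6% were higher and 31.4% lower, and 12.7% were higher DEGs and 12.2% lower DEGs. *Pgls*, 6-phosphogluconolactonase, had 1083, 1230 and 1136 reads in WT and 1783, 2103 and 2105 in Piezo1cko, a log2 fold change of 0.80 ± 0.064 (SE). *Rpia*, which forms ribose 5-phosphate, rose by 0.57 ± 0.103 and *Rpe* fell by 0.28 ± 0.05 on the log2 scale. *G6pdx*, *Pgd* and *Tkt* had log2 fold changes of -0.17, -0.13 and -0.15, and *Taldo1* was higher by 0.08.

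Among 22 other kinases and monophosphate enzymes tested, 6 were higher and 6 lower. Beside this and the counts that follow, 31.6% of all genes tested were higher and 31.4% lower. *Ak1*, adenylate kinase, was a DEG with 15.5, 21.2 and 12.5 reads in WT and 178, 153 and 158 in Piezo1cko, a log2 fold change of 3.30 ± 0.233 (SE), and *Nme5* was a lower DEG with 2.91, 3.03 and 14.4 reads in WT and 0 in Piezo1cko. Among 23 genes of breakdown and pool cleaning 9 were higher and 5 lower. *Ampd3*, AMP deaminase, rose from 72.0 ± 9.43 to 188 ± 19.95 reads (SD, n = 3), and *Tymp*, thymidine phosphorylase, had 47.5, 44.4 and 39.4 reads in WT and 6.27, 4.87 and 7.12 in Piezo1cko. The other DEGs of that list were *Pnp2* and *Upp2*, a uridine phosphorylase with 0 reads in WT and 9.40, 8.77 and 2.04 in Piezo1cko, both higher, and *Upb1*, of pyrimidine breakdown, which was lower with 3.88, 5.05 and 9.62 reads in WT and 0, 0 and 1.02 in Piezo1cko. Of 5 nucleoside transporters tested 4 were higher and 0 lower, with *Slc29a4* the only DEG, at 0.97, 0 and 0 reads in WT and 5.22, 3.90 and 8.14 in Piezo1cko.

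Of 9 regulators known to act on nucleotide synthesis genes 6 were lower and 0 higher, beside 31.4% and 31.6% of all genes tested. *Myc* had 9471, 10062 and 9988 reads in WT and 7763, 8569 and 8567 in Piezo1cko, a log2 fold change of -0.25 ± 0.036 (SE) with an adjusted p of 2.57e-05. Its paralogue *Mycn* had 33.0, 28.3 and 23.1 reads in WT and 0 in each Piezo1cko library, at least 9.37-fold lower with a floor of 3 reads per library. *Max*, the partner of both, had 876, 780 and 787 reads in WT and 771, 791 and 739 in Piezo1cko and was not called. Of the 7 members with an E-box 4 were higher, 2 lower and 1 not called, beside these values of *Myc*, and no relation between them was tested.

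*E2f2*, a cell cycle factor, had 966, 1056 and 1060 reads in WT and 229, 219 and 211 in Piezo1cko, a log2 fold change of -2.22 ± 0.075 (SE). *E2f1* and *E2f3* were not called, with log2 fold changes of -0.14 ± 0.076 and -0.19 ± 0.099. *Atf4*, which drives the serine and one-carbon genes under amino acid stress, had 1130, 1083 and 1172 reads in WT and 698, 704 and 709 in Piezo1cko, a log2 fold change of -0.68 ± 0.049. *Hif1a*, the oxygen-regulated factor, was lower, with a log2 fold change of -1.30 ± 0.06, and so was *Trp53*, which encodes p53 and acts on *Rrm2b*, with -0.45 ± 0.044.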

How the data were processed

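Per the submitters' processing notes, the authors used fastp 0.20.1 on the reads, HISAT2 2.2.1 for alignment to GRCm38, featureCounts 2.0.1 for gene counts and DESeq2 1.28.1 afterwards. The deposited values, 1 column per library, are log2 values with the form of the regularized log, which pulls low and noisy genes toward their mean. A gene listed at 0 was at 0 in all libraries.

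The regularized log was undone by fitting size factors, pull and dispersion trend until values became whole reads. From 9 of 9 starting points the fit reached a score for whole reads within 10% of that of the final fit. The final fit refined the best of them. Among 18321 genes averaging 1 read or more, 90.9% of values lay within 0.1 of a whole number (22% with the pull set 10% too strong). For the members, mostly of high counts, it was 74.1%, and for 8081 genes under 1 read it was 26.7%, so those were rounded and are less certain. Reads were 14745570 to 15483559 per WT library and 14112090 to 15094226 per Piezo1cko library. The recovery and the fits were checked on simulated reads. For the fits the planted changes were larger than those of the members. The fit used for calls was checked there on plain log2 values and not on a regularized log. Calls on changes as small as those of the members were thus not checked.

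Genes with a mean deposited value of at least 1 (16746) were tested in R 4.3.3 with limma 3.58.1 (lmFit, then trended eBayes), and recovered reads of genes with at least 10 reads in total (17352) with limma-voom, both two-sided, without covariates, with Benjamini-Hochberg adjustment over all genes tested. Calls are from the former. Fold changes and adjusted p-values in the text are from the latter unless stated otherwise, and ± after them is the SE. Adjusted p-values of fits that leave out a library are from the former. TPM was computed from recovered reads and the merged length of all annotated exons of each gene (GENCODE M21), which is not the length of 1 transcript. No library or sample column was left out. Members and lists were chosen with earlier results of these data known. Named were all members, all regulators, *Piezo1*, and of each other list up to 3 DEGs per direction without overlap. The genes of the pentose phosphate path, the sort markers, *Mmp8*, *Ms4a1*, *Pax5* and the sums and differences said to be chosen late were added after their values were seen. So were *Cpa3*, *Fcer1a*, *Cd68*, *Csf1r* and *Adgre1*. Alternatives were other filters, scalings, a replicate block, no trend and each library left out. Other steps ran in Python 3.11.15 (numpy 2.4.6, pandas 2.3.3, scipy 1.17.1, matplotlib 3.10.9).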

Additional observations from a re-analysis of the deposited data

How the results depend on the processing

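Of the 29 calls on members, 20 (6 higher and 14 lower) were kept under every alternative tried: all genes with values, genes averaging 50 recovered reads or more, centring each library on its median, a replicate block, no trend, recovered reads without a fold change threshold, and leaving out each library in turn. The other 9 (*Aprt*, *Tyms*, *Nme1*, *Nme2*, *Impdh1*, *Gmps*, *Cad*, *Pfas* and *Ada*) were lost under at least 1 of these, and *Dut*, *Adsl* and *Tk1* were gained under some. Leaving out 1 library gave 6 to 10 higher and 15 to 17 lower members, with the lowest number of higher members without WT replicate 3. The number of DEGs was 0 in each direction under every alternative. Of the 8 gene pairs, 6 did not overlap on the deposited values and 5 on log2 of recovered reads plus 1. The uncalled difference of *Adss* changed sign, to 0.007 on the deposited values with each library centred on its median and to 0.022 on recovered reads scaled by the upper quartile. The labels do not say whether the replicate numbers pair the libraries, and the main fits did not pair them. Deviations of same-numbered WT and Piezo1cko libraries correlated at 0.195, 0.161 and 0.0696 across genes, each highest with its own number. Differently numbered libraries correlated at -0.17 to 0.0301. The reason for this was not tested. The fit with the replicate number as a block gave 12 higher and 20 lower members and 0 DEGs. At these depths the limit lies with *Cda*, *Nme2* and the rarer pathway genes, and 3 libraries per group set the precision of the rest. The cause of the lost calls was not tested.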
